A study of Mus musculus with 14 samples.

Results

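The microRNAs miR-23, miR-27 and miR-24 come from a pair of paralogous gene clusters, and their arms were followed in small RNA libraries of mouse dorsal root ganglia (DRG), where sensory neurons have their cell bodies. Every arm of miR-23a, miR-23b, miR-27a, miR-27b and miR-24 was taken, which gave 11 of the 1123 mature miRNAs listed. 5 of them come from cluster a (both arms of miR-23a and of miR-27a, and miR-24-2-5p), 5 from cluster b (both arms of miR-23b and of miR-27b, and miR-24-1-5p), and miR-24-3p comes from both. There were 14 libraries in 4 groups: CAST/Ei injured (3), CAST/Ei naive (3), C57BL/6 injured (3) and C57BL/6 naive (5). CAST/Ei is a wild-derived inbred strain and C57BL/6 the common laboratory strain. In the injured groups, the left sciatic nerve, which carries axons of DRG neurons, had been crushed for 30 s in male mice aged 8 to 10 weeks. Naive animals had no treatment, and neither their age nor their sex is recorded. Ganglia of all groups were dissociated before RNA extraction. The time between crush and dissection, which ganglia were taken, and whether a library pooled animals could not be read from the labels; the series' design text speaks of biological replicates.

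A miRNA is cut from a hairpin whose 2 sides give a 5p and a 3p arm. One arm is usually kept by an Argonaute protein, which it guides to mRNAs through its seed, bases 2 to 8, while the other arm is degraded. The clusters each encode miR-23, miR-27 and miR-24 in that order, so that 1 primary transcript can give all of them. In mice they are well known from endothelial cells and vessel growth. In mouse neurons miR-23 and miR-27 are known to restrain Apaf1, a protein that activates caspases. miR-27 is also known as a brake on fat cell formation, and miR-24 as a repressor of cell cycle genes such as E2F2 and MYC in human cell lines.

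The sequences below, from RefSeq on GRCm38.p6, show how far the copies can be told apart. The mature sequences of 10 of the 11 arms were matched. That of miR-23b-3p was not, so the bases that set it apart from miR-23a-3p are not shown. Capitals mark the seed in the lines of miR-23a-3p, miR-24-3p and miR-3074-5p, the seed and the differing base in the miR-27 lines, and the bases after the shared start in the miR-24 5p lines.
miR-23a-3p: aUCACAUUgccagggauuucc
miR-27a-3p: uUCACAGUggcuaaguucCgc
miR-27b-3p: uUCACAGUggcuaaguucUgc
miR-24-3p: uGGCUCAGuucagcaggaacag
miR-24-1-5p: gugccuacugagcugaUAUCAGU
miR-24-2-5p: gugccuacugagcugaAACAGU
miR-3074-5p: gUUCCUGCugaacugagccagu

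miR-27a-3p and miR-27b-3p share their seed and differ by 1 base, C19U counted from the 5′ end of miR-27a-3p, so short or misread reads could be given to either copy. The split between them rests on that base. miR-24-3p is the same sequence in both hairpins and cannot be divided between the clusters. The miR-24 copies can be told apart only by their 5p arms, which share their first 16 bases and then differ, as the capitals in those lines show. miR-3074-5p is listed because it is read from the opposite strand of both miR-24 hairpins, with a run of 20 bases complementary to miR-24-3p. Whether the counting used strand is not stated in the labels.

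On GRCm38.p6, cluster a lies on chromosome 8, plus strand, and its hairpins span 84208518 to 84208921, or 404 bases. In the GENCODE annotation Mir23a (84208518 to 84208592) and Mir27a (84208672 to 84208758) overlap no other gene, and Mir24-2 (84208815 to 84208921) overlaps an exon of the lincRNA Gm26532 on the same strand. Cluster b lies on chromosome 13, plus strand, 63300484 to 63301275, a span of 792 bases. It sits inside the protein-coding gene 2010111I01Rik on the same strand and inside an intron of Fancc, a DNA repair gene, on the opposite strand. Mir23b (63300484 to 63300557) is intronic in 2010111I01Rik. Mir27b (63300712 to 63300784) overlaps an exon of 1 of its transcripts, of the nonsense-mediated decay class, and Mir24-1 (63301208 to 63301275) overlaps exons of 4 transcripts of non-coding or nonsense-mediated decay classes. The miR-3074 hairpins lie on the minus strand across Mir24-2 and Mir24-1.

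The deposited values are CPM (counts scaled to a common library size), from 4007706 to 15642360 reads per library, with 949 to 1084 miRNAs detected and 1 read worth 0.0674 to 0.253 CPM. Fold changes are log2 differences of CPM + 1 from limma, fitted on the 638 miRNAs that reached 5 CPM in 3 or more libraries, with Benjamini-Hochberg adjustment and a threshold of 0.05. All 11 arms passed that filter. In these bulk samples, fewer cells of a type and less RNA per cell cannot be told apart. Sensory neuron markers (6 of 6 listed, none at 0 in any library) summed to 101820 to 165643 CPM, as the tissue label has it. The sums were 101820 to 110405 CPM in CAST/Ei injured and 129068 to 144524 CPM in CAST/Ei naive libraries. In C57BL/6 they were 106486 to 110930 CPM after injury and 132291 to 165643 CPM in naive ganglia. Every injured library thus lay below every naive library of its strain in these sums. Some other marker sums did not overlap either. In injured C57BL/6 libraries endothelial sums were higher, at 21869 to 26040 against 14920 to 19889 CPM. Their glial sums were higher too, at 34077 to 43006 against 6737 to 33997 CPM. In injured CAST/Ei libraries glial sums were lower, at 28781 to 30287 against 34808 to 39832 CPM. Skeletal muscle, erythrocyte and fibroblast sums were also lower there. The other sums overlapped within each strain. The part of these cell types in the fold changes after injury was not tested. Libraries 4 and 5 of naive C57BL/6 differed from the other 12 in several markers. Their miR-218-5p, known from motor neurons, was 260520 CPM in library 4 and 81351 CPM in library 5, against 3479 to 17984 CPM in the others. Their liver marker miR-122-5p was 369 to 661 CPM, against 8.63 to 39.8 CPM. Their summed glial markers (3 of 3 listed, none at 0) were 6737 to 7123 CPM, against 15065 to 43006 CPM. Their sensory neuron sums were 162389 to 165643 CPM, against 101820 to 144524 CPM. Endothelial sums were 14920 to 15040 CPM, against 18559 to 34319 CPM, and erythrocyte sums 6762 to 6803 CPM, against 7212 to 25813 CPM. Epithelial sums were 447 to 1591 CPM, against 217 to 384 CPM. Their skeletal muscle sums, 5220 to 15645 CPM, ran below and above the 6254 to 13734 CPM of the others. Their fibroblast sums, 3189 to 4990 CPM, reached above the 2434 to 3845 CPM of the others. Their mural and leukocyte sums lay within the range of the others. Several fold changes that rest on these libraries are given with and without them. Distances between profiles, spreads over all libraries and most ratio tests are given with them only.

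The 3p arms of both clusters were among the most abundant miRNAs of the ganglia, while the 5p arms were scarce. miR-23b-3p averaged 38799 CPM over the 14 libraries and ranked 4 of 1123, miR-24-3p averaged 27674 CPM (rank 9), miR-23a-3p 22272 CPM (rank 10), miR-27b-3p 16205 CPM (rank 19) and miR-27a-3p 5664 CPM (rank 45). These ranks compare read counts of miRNAs of nearly the same length and are not corrected for differences in cloning efficiency between sequences. The 11 arms made up 12.9 ± 0.552% of a library's value in CAST/Ei injured and 12.6 ± 1.50% in CAST/Ei naive libraries (SD, n = 3 each), against 10.4 ± 0.667% in C57BL/6 injured (n = 3) and 9.57 ± 1.28% in C57BL/6 naive libraries (n = 5). Every CAST/Ei library, at 11.5% or more, lay above every C57BL/6 library, at 10.8% or less. This share depends on the few abundant 3p arms and on the library's summed value, and was not tested. The summed value was lowest in CAST/Ei injured library 2, 867581 CPM, and highest in C57BL/6 naive library 4, 1311860 CPM. The lowest shares, 8.57% and 7.84%, were those of C57BL/6 naive libraries 4 and 5.

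**Figure D1:**
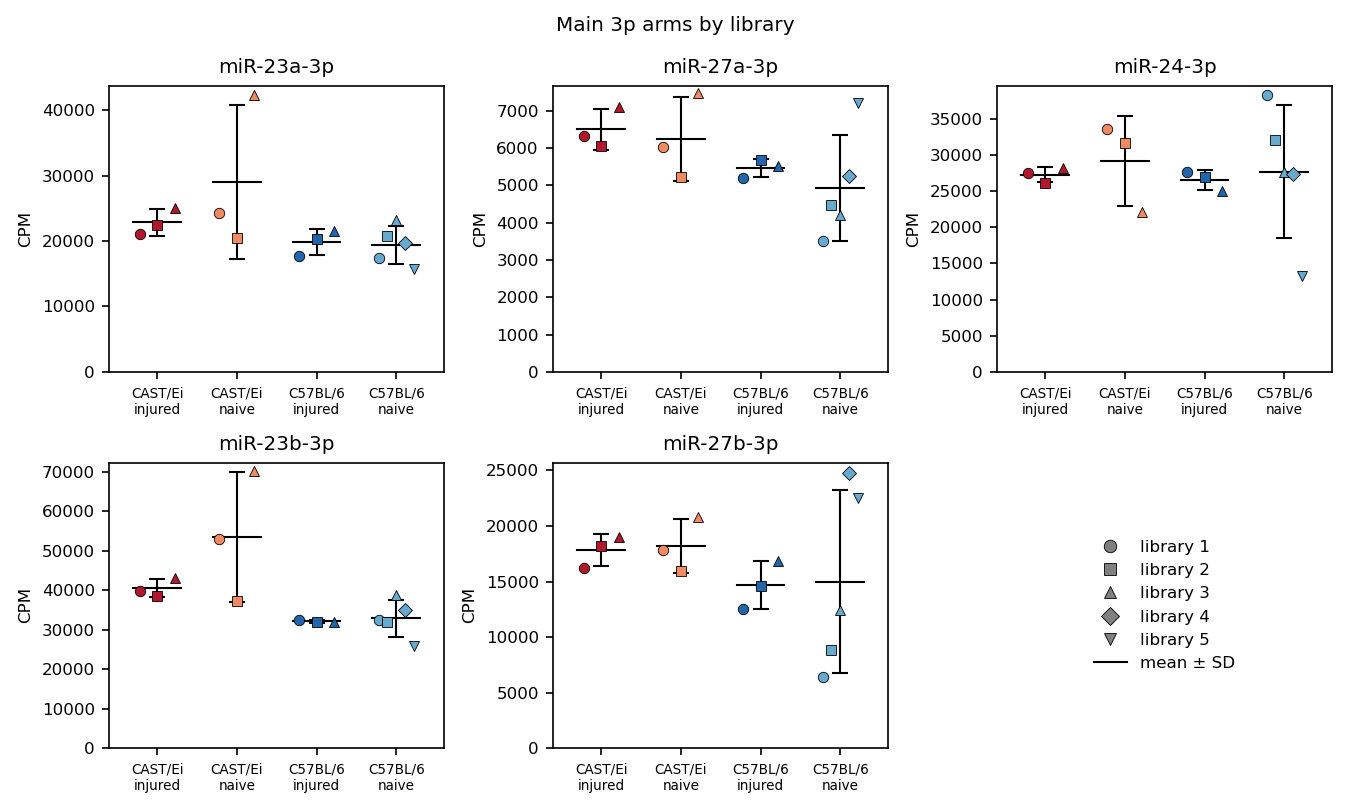
CPM (linear axes from 0) of the 5 main 3p arms in each library, by group, with cluster a above and cluster b below and miR-24-3p, made by both, at the top right; symbols give library numbers, horizontal lines the mean and bars the SD. miR-27b-3p in C57BL/6 naive libraries is split between 6373 to 12457 CPM in libraries 1 to 3 and 22470 to 24785 CPM in libraries 4 and 5.

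miR-23b-3p, the most abundant arm, was 39961, 38620 and 43147 CPM in CAST/Ei injured libraries and 53057, 37430 and 70168 CPM in CAST/Ei naive libraries. It was 32390, 32105 and 31861 CPM in C57BL/6 injured libraries and 32482, 32068, 38744, 35122 and 26027 CPM in C57BL/6 naive libraries. The injured groups were tight and lay apart by strain, while CAST/Ei naive libraries ranged widely, with library 3 the highest of all 14 and library 2 below the highest C57BL/6 naive library.

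miR-23a-3p was lower than miR-23b-3p in every library. It was 21045, 22484 and 25042 CPM in CAST/Ei injured and 24294, 20393 and 42351 CPM in CAST/Ei naive libraries. In C57BL/6 libraries it was 17660, 20285 and 21481 CPM after injury and 17438, 20760, 23155, 19740 and 15684 CPM in naive ganglia. The groups overlapped, and CAST/Ei naive library 3 was again far above the rest.

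miR-27b-3p was 16226, 18226 and 19005 CPM in CAST/Ei injured and 17816, 15940 and 20760 CPM in CAST/Ei naive libraries. It was 12534, 14629 and 16846 CPM in C57BL/6 injured libraries and 6373, 8798, 12457, 24785 and 22470 CPM in C57BL/6 naive libraries. C57BL/6 naive ganglia thus held both the 3 lowest and the 2 highest libraries of the study for this arm, and the 2 highest were libraries 4 and 5.

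miR-27a-3p, the copy from cluster a, was 6332, 6061 and 7111 CPM in CAST/Ei injured and 6034, 5232 and 7468 CPM in CAST/Ei naive libraries. It was 5199, 5693 and 5516 CPM in C57BL/6 injured libraries and 3519, 4463, 4201, 5240 and 7222 CPM in C57BL/6 naive libraries. C57BL/6 naive libraries 4 and 5 were again the highest of their group, and without them every CAST/Ei naive library lay above every C57BL/6 naive one.

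miR-24-3p, which both clusters make, was 27566, 26141 and 28171 CPM in CAST/Ei injured and 33638, 31711 and 22095 CPM in CAST/Ei naive libraries. It was 27616, 26933 and 25002 CPM in C57BL/6 injured libraries and 38290, 32033, 27695, 27317 and 13222 CPM in C57BL/6 naive libraries. The means of the 4 groups lay between 26517 and 29148 CPM, and the spread was within the naive groups, where C57BL/6 naive library 5 was the lowest of all and library 1 the highest. C57BL/6 naive library 1 was thus the highest library for miR-24-3p and the lowest for miR-27b-3p.

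Over all 14 libraries the ranges of neighbours in the order of levels overlapped. Within libraries, miR-23b-3p lay above miR-24-3p in 13 of 14, miR-24-3p above miR-23a-3p in 12 of 14, miR-23a-3p above miR-27b-3p in 12 of 14 and miR-27b-3p above miR-27a-3p in 14 of 14. The exceptions were C57BL/6 naive library 1 for the first pair, CAST/Ei naive library 3 and C57BL/6 naive library 5 for the next, and C57BL/6 naive libraries 4 and 5 for miR-23a-3p and miR-27b-3p.

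The 5p arms held a small share of each pair of arms in every library. miR-23b-5p made up 0.0118 to 0.107% of miR-23b reads, miR-23a-5p 0.0107 to 0.0424% of miR-23a, miR-27a-5p 0.0575 to 0.229% of miR-27a, and miR-27b-5p 0.0704 to 0.494% of miR-27b. The 5p arms of miR-24 together made up more, 0.669 to 2.82% of miR-24. The scarcest arm, miR-23a-5p, rested on 16 to 123 reads per library and reached 5 CPM in 8 of 14 libraries, so its counting error was large beside that of the 3p arms.

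miR-24-2-5p, from cluster a, was 254, 242 and 290.1 CPM in CAST/Ei injured libraries and 281, 289 and 141.5 CPM in CAST/Ei naive libraries. It was 446, 346 and 412 CPM in C57BL/6 injured libraries and 368, 324, 227, 141 and 290 CPM in C57BL/6 naive libraries. All 3 C57BL/6 injured libraries lay above all 3 CAST/Ei injured ones, and the naive groups overlapped.

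miR-24-1-5p, from cluster b, was 103, 107 and 97.2 CPM in CAST/Ei injured and 111, 136 and 59.5 CPM in CAST/Ei naive libraries. In C57BL/6 libraries it was 113, 96.8 and 110.1 CPM after injury and 51.2, 73.6, 101, 43.0 and 94.6 CPM in naive ganglia. Its groups overlapped in every comparison.

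miR-23b-5p was 10.4, 11.6 and 13.3 CPM in CAST/Ei injured and 14.3, 10.3 and 12.5 CPM in CAST/Ei naive libraries. It was 9.36, 3.80 and 8.65 CPM in C57BL/6 injured libraries and 12.6, 13.2, 6.59, 20.9 and 27.8 CPM in C57BL/6 naive libraries. The highest were C57BL/6 naive libraries 4 and 5, and 1 naive library, number 3, lay below 2 of the injured ones.

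miR-27b-5p averaged 47.1 ± 6.58 CPM in CAST/Ei injured, 42.3 ± 2.86 CPM in CAST/Ei naive and 41.3 ± 5.86 CPM in C57BL/6 injured libraries (SD, n = 3 each), and 31.7 ± 12.2 CPM in C57BL/6 naive libraries (SD, n = 5). C57BL/6 naive library 4 had the lowest miR-27b-5p of all 14, 17.5 CPM, and the highest miR-27b-3p, so the arms of that hairpin ran in opposite directions there. miR-27a-5p ranged over 4.30 to 12.3 CPM and miR-23a-5p over 2.61 to 9.10 CPM, with overlapping groups in every comparison.

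**Figure D2:**
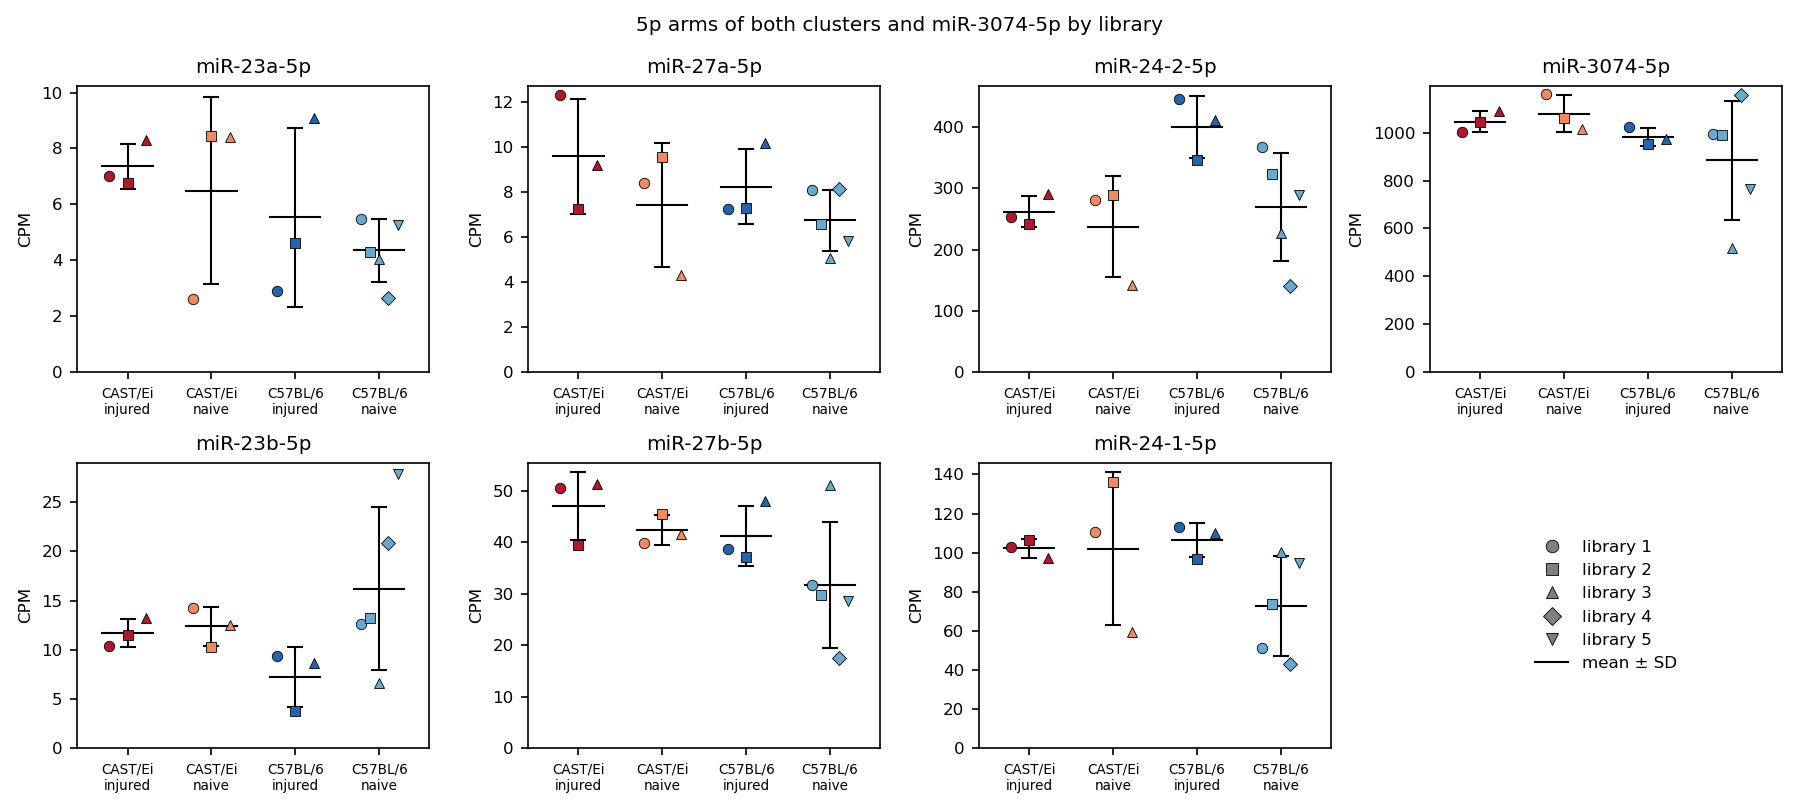
CPM (linear axes from 0) of the 6 5p arms and of miR-3074-5p in each library, by group; symbols give library numbers, horizontal lines the mean and bars the SD. miR-24-2-5p was 346 to 446 CPM in the C57BL/6 injured libraries, above the 242 to 290.1 CPM of the CAST/Ei injured ones.

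miR-3074-5p averaged 983 CPM (rank 105) and equalled 1.87 to 5.78% of the miR-24-3p value of the same library. It was 1047 ± 44.0 CPM in CAST/Ei injured, 1081 ± 75.9 CPM in CAST/Ei naive and 984 ± 37.3 CPM in C57BL/6 injured libraries (SD, n = 3 each), and 885 ± 249 CPM in C57BL/6 naive libraries (SD, n = 5). The lowest share of miR-24-3p, 1.87%, and the highest, 5.78%, both belonged to C57BL/6 naive libraries, numbers 3 and 5. None of the 3 miR-3074 arms passed the limma test in any of the 6 contrasts (0 of 18 tests, lowest adjusted p = 0.363, 0 with an unadjusted p under 0.05).

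Which cluster's copy had the higher value depended on the member. These are read values of different sequences, not corrected for cloning efficiency, so they do not measure the output of each cluster. For miR-24 they cover only the 5p arms, 0.669 to 2.82% of miR-24. Within each library the cluster b copy led for miR-23 and miR-27 and the cluster a copy for the 5p arms of miR-24. miR-23a-3p made up 31.4 to 40.3% of the miR-23 3p arms, and miR-27a-3p made up 17.5 to 35.6% of the miR-27 3p arms, with cluster b higher in 14 of 14 libraries for both. miR-24-2-5p made up 68.0 to 87.8% of the miR-24 5p arms, with cluster a higher in 14 of 14 libraries. The order within each pair was thus the same in every library, while miR-24-3p itself gives no split.

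**Figure D3:**
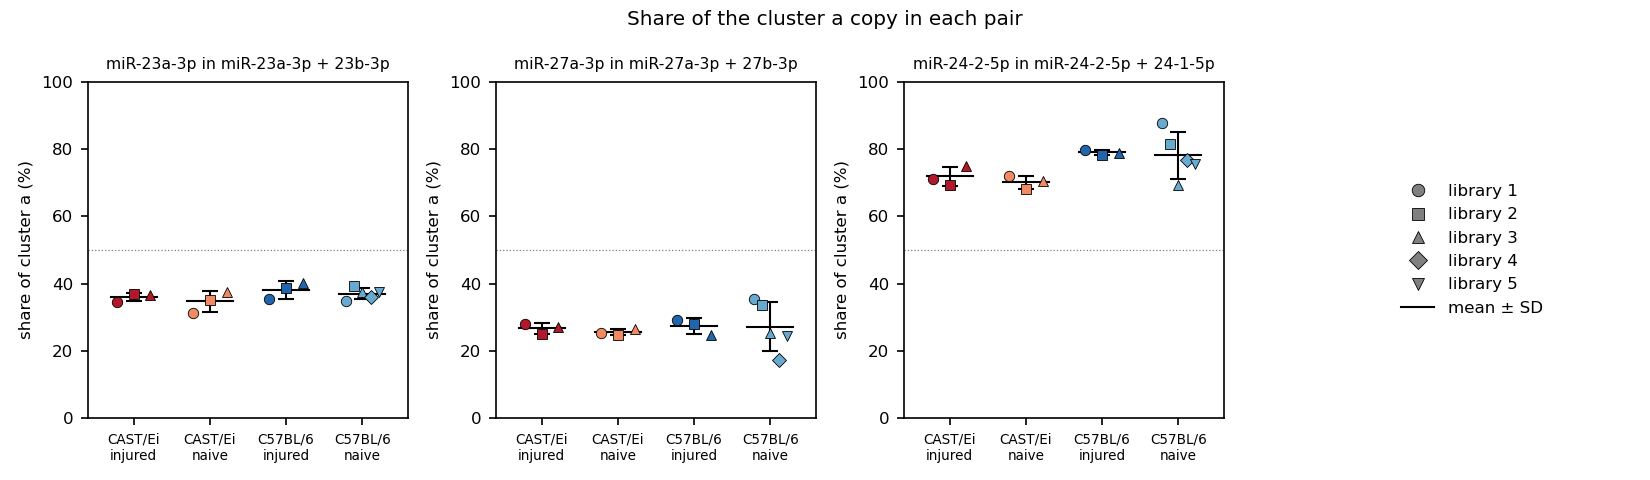
Share (%) of the cluster a copy in miR-23-3p, miR-27-3p and the miR-24 5p arms in each library, by group; the dotted line marks equal shares, horizontal lines the mean and bars the SD. The cluster a copy stays at 40.3% or below for miR-23 and 35.6% or below for miR-27, and at 68.0% or above for the miR-24 5p arms.

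Ratios of arms within a library, taken on CPM + 1, take out all but a trace of its scaling where both arms are abundant. The added 1 leaves more of it in ratios with a scarce 5p arm, such as miR-23a-5p at 2.61 to 9.10 CPM. In all, 9 ratios of both kinds were compared between groups by two-sided exact permutation tests, 54 tests adjusted together. None passed the adjusted threshold, and 1 had an unadjusted p under 0.05. 3 libraries against 3 cannot reach a p below 0.1, and 3 against 5 cannot go below 0.0179. The log2 ratio of miR-23a-3p to miR-23b-3p differed by 0.06 for injured minus naive C57BL/6 (exact permutation p = 0.5) and by 0.08 for injured minus naive CAST/Ei (exact permutation p = 0.7). For CAST/Ei minus C57BL/6 it differed by -0.14 in naive ganglia (exact permutation p = 0.232), by -0.13 in injured ganglia (exact permutation p = 0.3) and by -0.14 averaged over both states (exact permutation p = 0.0777). The adjusted p was 0.941 for each of these 5 tests.

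The 1 ratio with a low unadjusted p was that of miR-24-2-5p to miR-24-1-5p between strains. The ratio was 2.45, 2.25 and 2.97 in CAST/Ei injured and 2.53, 2.12 and 2.36 in CAST/Ei naive libraries, against 3.91, 3.54 and 3.72 in C57BL/6 injured and 7.06, 4.35, 2.24, 3.23 and 3.04 in C57BL/6 naive libraries. All CAST/Ei libraries lay below all C57BL/6 libraries but 1, naive library 3. With injured and naive libraries permuted within their own state, the log2 difference between CAST/Ei (mean 1.28) and C57BL/6 (mean 1.89) was -0.61, with an exact permutation p of 0.00982 over 1120 arrangements (the smallest possible is 0.000893) and an adjusted p of 0.53. Over the alternatives the difference lay between -0.70 and -0.49 and the adjusted p between 0.231 and 0.939.

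After sciatic nerve crush no member passed the threshold in either strain. In C57BL/6, injured against naive, 0 of 11 arms passed (limma, against 3.13% of the 638 miRNAs). Of the 11, 1 had an unadjusted limma p under 0.05, as 23.7% of the 638 did. edgeR called 0 arms, beside 32 of the 638, and DESeq2 called 1, beside 79 of the 638. The main 3p arms had log2 fold changes of -0.02 to 0.19. miR-23b-3p had -0.02 ± 0.22 (SE; 95% interval -0.49 to 0.45), miR-27a-3p 0.19 ± 0.24 and miR-24-3p 0.02 ± 0.29, so changes of these sizes were within the spread between libraries. The median over the 11 arms was 0.19, beside 0.12 over all 638, and for no arm did all injured libraries lie above or all below the naive ones, which held for 8.62% (above) and 6.27% (below) of the 638.

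The lowest unadjusted p there was that of miR-23b-5p, with a log2 fold change of -0.995 ± 0.39 (limma adjusted p = 0.145). With DESeq2 it was -1.26 (adjusted p = 0.0310), with edgeR it was -1.29 (adjusted p = 0.0841), without C57BL/6 naive library 3 it was -1.26 (limma adjusted p = 0.0325, with 70 of 634 miRNAs called), and without libraries 4 and 5 it was -0.54 (limma adjusted p = 0.416). With all libraries the miR-24 5p arms of both clusters had similar values that did not pass. These were 0.64 ± 0.32 for miR-24-2-5p (limma adjusted p = 0.237) and 0.62 ± 0.32 for miR-24-1-5p (limma adjusted p = 0.26). With the replicate number as a block, which takes out libraries 4 and 5, they were 0.41 and 0.55 (limma adjusted p = 0.376 and 0.345). miR-27b-3p had 0.15 ± 0.37 with all libraries and 0.71 ± 0.22 without C57BL/6 naive libraries 4 and 5 (limma adjusted p = 0.817 and 0.0941).

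In CAST/Ei, injured against naive, 0 of 11 arms passed (limma, against 1.1% of the 638). Of the 11, 0 had an unadjusted limma p under 0.05, against 6.43% of the 638. edgeR called 0 arms, beside 8 of the 638, and DESeq2 called 0, beside 16 of the 638. The log2 fold changes lay between -0.36 for miR-23b-3p (95% interval -0.88 to 0.17) and 0.36 for miR-27a-5p (95% interval -0.34 to 1.07), with a median of 0.07 beside -0.09 over all miRNAs. The groups overlapped for all 11 arms, while 10.2% of the 638 lay wholly above and 16.5% wholly below in injured libraries. Without CAST/Ei naive library 3, the highest library for both miR-23 copies, the fold change of miR-23b-3p was -0.14 and that of miR-23a-3p 0.03, against -0.27 for miR-23a-3p with all libraries. Without CAST/Ei naive library 2, the lowest of its group for both, they were -0.59 (95% interval -1.11 to -0.07; limma adjusted p = 0.531) and -0.49 (limma adjusted p = 0.634).

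The difference between the strains' injury effects was tested directly. For 0 of 11 arms did it pass (limma, against 0% of the 638), with 0 at an unadjusted limma p under 0.05 (8.15% of the 638). edgeR called 0 arms, beside 1 of the 638, and DESeq2 called 0, beside 9 of the 638. The differences, CAST/Ei minus C57BL/6, lay between -0.54 and 0.93, and the highest, that of miR-23b-5p, had a 95% interval of -0.32 to 2.18. Averaged over the strains, the injury effect passed for 0 of 11 arms (limma, against 4.23% of the 638), with log2 values of -0.53 to 0.42. Of the 11, 0 had an unadjusted limma p under 0.05 (15.8% of the 638). edgeR called 0 arms, beside 26 of the 638, and DESeq2 called 0, beside 48 of the 638.

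Between the strains, both miR-23 copies and both miR-27 copies had higher means in CAST/Ei, and no arm passed the threshold with all libraries. In naive ganglia, CAST/Ei against C57BL/6, 0 of 11 arms passed (limma, against 11.1% of the 638). Of the 11, 2 had an unadjusted limma p under 0.05, as 31.8% of the 638 did. edgeR called 0 arms, beside 77 of the 638, and DESeq2 called 0, beside 118 of the 638. miR-23b-3p had a log2 fold change of 0.67 ± 0.22 (95% interval 0.20 to 1.14; limma adjusted p = 0.0579) and miR-23a-3p 0.52 ± 0.24 (limma adjusted p = 0.149). miR-27b-3p had 0.46 ± 0.37, miR-27a-3p 0.37 ± 0.24 and miR-24-3p 0.13 ± 0.29 (limma adjusted p = 0.411, 0.295 and 0.783). The median over the 11 arms was 0.39, beside 0.12 over all miRNAs, and the groups overlapped for all 11 arms, while 9.4% of the 638 lay wholly above and 7.05% wholly below in CAST/Ei. The naive C57BL/6 libraries used here are those of the C57BL/6 injury comparison too.

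The call in naive ganglia turned on a few libraries. Without C57BL/6 naive libraries 4 and 5, miR-27b-3p was higher in CAST/Ei by a log2 fold change of 1.03 ± 0.22 (limma adjusted p = 0.00778) and miR-27a-3p by 0.61 ± 0.17 (limma adjusted p = 0.0340), while miR-23b-3p stood at 0.60 (limma adjusted p = 0.0615). These 2 of 11 arms stand beside 89 of 627 miRNAs called without those libraries. With the replicate number as a block, 3 of 11 arms passed, beside 111 of the 638: miR-27b-3p at 1.03 (limma adjusted p = 0.00181), miR-27a-3p at 0.61 (limma adjusted p = 0.0217) and miR-23b-3p at 0.60 (limma adjusted p = 0.0321). Libraries 4 and 5 have no counterpart in other groups, so the block takes them out of these fold changes by its construction. For miR-23b-3p the fold change was 0.73 without C57BL/6 naive library 3 (limma adjusted p = 0.0377, with 147 of 634 miRNAs called), 0.90 without CAST/Ei naive library 2 (limma adjusted p = 0.0250, with 44 of 635 called) and 0.45 without CAST/Ei naive library 3 (limma adjusted p = 0.224). For miR-23a-3p it was 0.21 without CAST/Ei naive library 3.

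In injured ganglia, CAST/Ei against C57BL/6, 0 of 11 arms passed (limma, against 3.29% of the 638). Of the 11, 0 had an unadjusted limma p under 0.05, against 8.78% of the 638. edgeR called 0 arms, beside 21 of the 638, and DESeq2 called 0, beside 25 of the 638. miR-23b-3p, miR-27a-3p and miR-23b-5p were higher in every CAST/Ei injured library than in every C57BL/6 injured one, 3 of 11 arms or 27.3%, against 15.4% of all 638 miRNAs. miR-24-2-5p was lower in every CAST/Ei injured library, 1 of 11 or 9.09%, against 20.5% of all miRNAs. Their log2 fold changes were 0.34 ± 0.25, 0.25 ± 0.26, 0.70 ± 0.44 and -0.61 ± 0.36. When the spread was estimated from these 2 tight groups alone, miR-23b-3p (limma adjusted p = 0.0385) and miR-24-2-5p (limma adjusted p = 0.0186) passed, beside 105 of the 638 miRNAs. The median over the 11 arms was 0.21, beside -0.06 over all miRNAs.

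Markers of several cell types differed between the strains in the same libraries. Mural markers after injury and endothelial markers in naive ganglia were higher in CAST/Ei. The mural cell markers (miR-143 and miR-145 arms, 3 of 3 listed, none at 0) summed to 15203 to 16497 CPM in CAST/Ei injured and 14325 to 19381 CPM in CAST/Ei naive libraries, against 9049 to 12384 CPM in C57BL/6 injured and 8981 to 15224 CPM in C57BL/6 naive libraries. The endothelial markers (miR-126 arms, 4 of 4 listed, none at 0) summed to 21434 to 25762 CPM in CAST/Ei injured and 22473 to 34319 CPM in CAST/Ei naive libraries, against 21869 to 26040 CPM in C57BL/6 injured and 14920 to 19889 CPM in C57BL/6 naive libraries. Mural markers did not overlap between strains after injury, and endothelial markers did not overlap between the naive groups. The mural sums of the naive groups and the endothelial sums of the injured groups overlapped. Other marker sums were lower in every CAST/Ei injured library than in every C57BL/6 injured one (no marker at 0 in any library): glial markers (3 of 3 listed) were 28781 to 30287 CPM against 34077 to 43006 CPM, skeletal muscle markers (3 of 3) 6254 to 7253 CPM against 8747 to 9488 CPM, erythrocyte markers (3 found) 7212 to 8867 CPM against 10580 to 13863 CPM, and fibroblast markers (4 of 4) 2772 to 2985 CPM against 3173 to 3690 CPM. Between naive groups the glial sums did not overlap either, at 34808 to 39832 CPM in CAST/Ei against 6737 to 33997 CPM in C57BL/6. The part of these cell types in the miR-23, miR-27 and miR-24 values was not tested. How reads of CAST/Ei, whose genome differs from the C57BL/6 reference, were aligned is not stated in the labels.

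**Figure D4:**
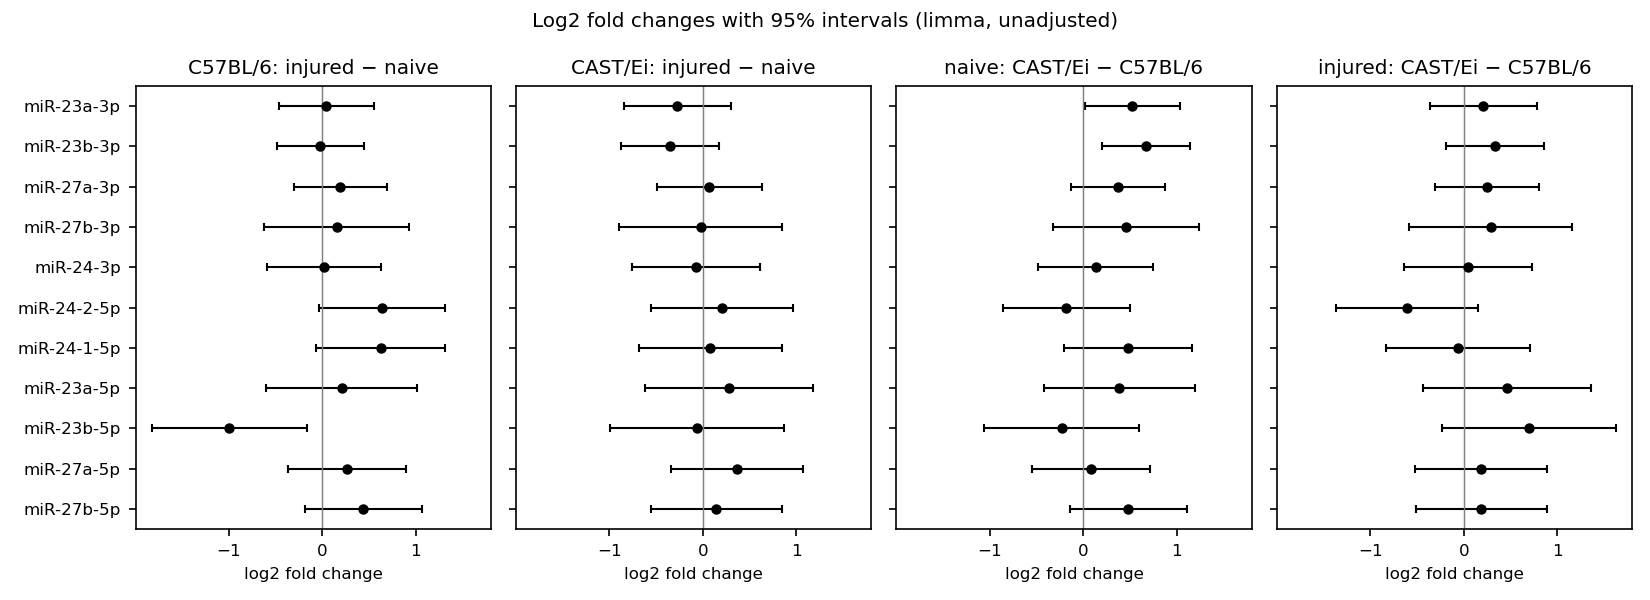
Log2 fold changes (points) with unadjusted 95% intervals (bars, limma) of the 11 arms in the injured minus naive comparisons of C57BL/6 and CAST/Ei and in the CAST/Ei minus C57BL/6 comparisons of naive and injured ganglia. Intervals clear of 0 are those of miR-23b-5p in C57BL/6 (-0.995) and of miR-23b-3p (0.67) and miR-23a-3p (0.52) between naive strains, none of which passed after adjustment.

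Each 3p arm of miR-23 and miR-27 followed its copy in the other cluster more closely than its neighbours in the same cluster. Likeness was measured as the mean absolute difference between log2 profiles over the 14 libraries, each centred on its own mean, so that 0 is the same profile; no test was made, since the arms share libraries and scaling. miR-23a-3p and miR-23b-3p, on chromosomes 8 and 13, lay 0.11 apart, and each was the nearest to the other of all 638 miRNAs. miR-27a-3p and miR-27b-3p lay 0.22 apart; miR-27a-3p ranked 2 by nearness to miR-27b-3p, and miR-27b-3p ranked 11 by nearness to miR-27a-3p. Within cluster a, miR-23a-3p and miR-27a-3p lay 0.24 apart, hardly farther than the miR-27 copies, and within cluster b, miR-23b-3p and miR-27b-3p lay 0.40 apart. miR-24-3p lay 0.31 from miR-23b-3p and 0.55 from miR-27b-3p. Copies of 1 miRNA also share most of their sequence, and the part of reads assigned to the wrong copy in these distances was not tested.

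**Figure D5:**
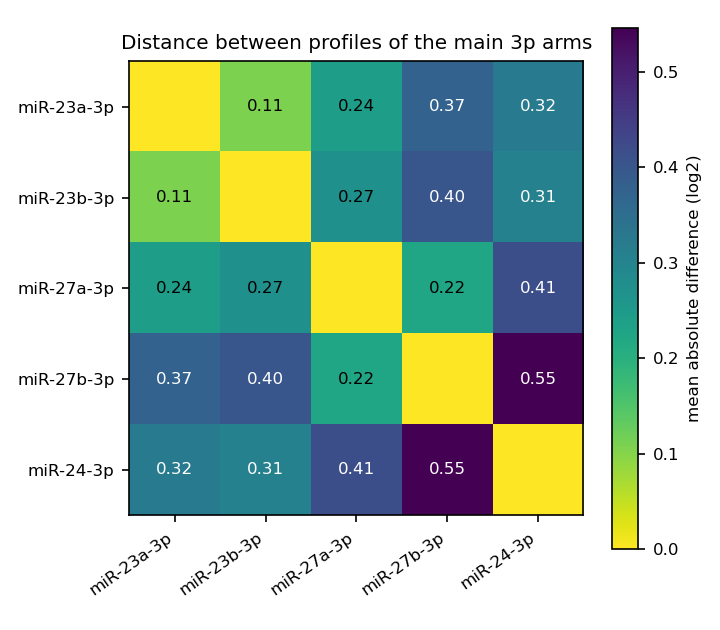
Mean absolute difference (log2) between the centred profiles of the 5 main 3p arms over the 14 libraries, darker for less alike, with values in the cells. The smallest is 0.11 between miR-23a-3p and miR-23b-3p and the largest 0.55 between miR-27b-3p and miR-24-3p.

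The miRNAs outside the clusters with the nearest profiles were miR-10b-5p for both miR-23 copies, at 0.18 from miR-23a-3p and 0.14 from miR-23b-3p. For miR-27a-3p the nearest was miR-17-3p (0.18), for miR-27b-3p miR-345-3p (0.21) and for miR-24-3p miR-107-3p (0.16). The arms also differed in how much they varied over all libraries. The mean absolute deviation on the log2 scale was 0.21 for miR-24-3p, 0.21 for miR-23a-3p, 0.23 for miR-27a-3p and 0.25 for miR-23b-3p. It was 0.39 for miR-27b-3p, the most variable of the main arms, beside a median of 0.41 over all 638 miRNAs. That median covers miRNAs of all levels and is not matched to these arms in abundance. The 5p arms ran from 0.27 for miR-27a-5p to 0.44 for miR-23a-5p.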

How the data were processed

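Members and lists were chosen with earlier results of these data known. Per the labels' protocols, RNA came from the miRVana kit and libraries from the Ion Total RNA-Seq kit; Bowtie2 is named in the submitters' processing notes. The authors deposited 1 signal value per miRNA and library. In every library 100% of values corresponded to whole reads, with a tolerance of 1e-06, and the totals matched TMM factors within 9.08e-06, so the deposited signal is CPM on TMM-scaled library sizes. The step of C57BL/6 injured library 1 is close to a round decimal, and edgeR was therefore repeated with that library left out. limma 3.58.1 (R 4.3.3) was fitted with a trend to log2(CPM + 1) of all 14 libraries by group, on 638 miRNAs with 5 CPM or more in 3 libraries, for 6 contrasts; it was tested on simulated data. edgeR 4.0.16 and DESeq2 1.42.0 were run on the recovered reads. The text names every member, and for each main arm the nearest profile outside the clusters. Loci come from GENCODE and sequences from RefSeq, both on GRCm38.p6; the labels name neither the authors' build nor their miRNA release. Replicate numbers were checked for pairing by correlating same-numbered deviations from group means. These were 0.114, 0.104 and 0.108 between CAST/Ei naive and C57BL/6 naive, above the limit of 0.1 set for pairing, so that comparison is also given with the block. The pairing comes from these correlations alone, as the labels state none. Single values in the other comparisons ran from -0.19 to 0.31, so these correlations cannot establish pairing. The block was fitted over all 14 libraries, also the groups that the numbers did not pair. The libraries carry no molecular identifiers, so counting errors cover reads only.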

Additional observations from a re-analysis of the deposited data

How the results depend on the processing

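Of 1232 recomputed fold changes, 1150 kept direction and call, 12 gained a call and 70 changed sign; all that changed sign were uncalled. Rescaling to a common total moved the median of all miRNAs to 0.26 (0.12 before) for injury in C57BL/6 and to 0.16 (-0.09 before) in CAST/Ei. Counts of arms called were 0 in all comparisons, and 1 for injury in C57BL/6 with DESeq2 (79 of all 638 called) and with the replicate block (miR-27b-3p, 0.71; 37 of 638), 3 between naive strains with the block (111 of 638) and 2 without C57BL/6 naive libraries 4 and 5 (89 of 627), and 2 between injured strains from those groups alone (105 of 638). Leaving out 1 library gave 0 to 1 arm for injury in C57BL/6 and between naive strains, and 0 elsewhere. Same-numbered deviations correlated at -0.08, -0.05 and 0.31 between C57BL/6 injured and naive, at 0.15, 0.02 and -0.04 between CAST/Ei injured and naive, and at 0.02, -0.19 and 0.02 between the injured strains, so numbers pair none of these. Beside the naive strains and miR-27b-3p after injury in C57BL/6, the block changed no call. The cause of the changes was not tested. Depth limits miR-23a-5p, at 16 reads in its poorest library.

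Signs changed as follows. For injury in C57BL/6, miR-23a-3p was -0.043 with DESeq2 size factors, -0.041 with the block and without libraries 4 and 5, -0.087 with edgeR and -0.059 with DESeq2. miR-24-3p was -0.067 with size factors, -0.20 with edgeR, -0.16 with DESeq2 and -0.29 with the block and without libraries 4 and 5. miR-27b-3p was -0.14 with edgeR, -0.019 with edgeR without C57BL/6 injured library 1, and -0.12 with DESeq2. miR-23b-3p was 0.12 rescaled to a common total, 0.048 on a total without the 3 top miRNAs and 0.0026 with copies summed. Leaving out 1 library gave -0.031 to 0.12 for miR-23a-3p, -0.10 to 0.040 for miR-23b-3p, -0.11 to 0.38 for miR-27b-3p, -0.23 to 0.16 for miR-24-3p and -0.17 to 0.52 for miR-23a-5p. For injury in CAST/Ei, miR-27b-3p, miR-24-3p and miR-23b-5p were 0.24, 0.19 and 0.18 rescaled to a common total, 0.22, 0.17 and 0.16 without the 3 top miRNAs, 0.070, 0.022 and 0.020 with size factors, and 0.068, 0.0050 and 0.022 with DESeq2. miR-27b-3p was 0.012 with edgeR (also without C57BL/6 injured library 1) and 0.0019 with copies summed. Leaving out 1 library gave -0.49 to 0.035 for miR-23a-3p, -0.049 to 0.21 for miR-27a-3p, -0.11 to 0.077 for miR-27b-3p, -0.26 to 0.043 for miR-24-3p, -0.26 to 0.33 for miR-24-1-5p, -0.13 to 0.38 for miR-24-2-5p, -0.18 to 0.51 for miR-23a-5p and -0.18 to 0.034 for miR-23b-5p. Between naive strains, miR-24-3p was -0.043 with edgeR (also without C57BL/6 injured library 1), -0.075 with DESeq2 and -0.18 with the block and without libraries 4 and 5; miR-23b-5p was 0.23 in both of these; miR-27a-5p was -0.019 with size factors and -0.0050 with DESeq2. Leaving out 1 library gave -0.11 to 0.32 for miR-24-3p, -0.40 to 0.15 for miR-24-2-5p and -0.11 to 0.38 for miR-27a-5p. Between injured strains, miR-24-1-5p was 0.022 rescaled to a common total, 0.0066 with size factors, 0.049 without the 3 top miRNAs and 0.00375 with edgeR (0.023 without C57BL/6 injured library 1).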
